A study of Homo sapiens with 6 samples.

Results

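The epithelial-mesenchymal state genes described here are VIM, CDH1, CDH2, ZEB1, ZEB2, SNAI1, SNAI2, TWIST1, EPCAM and ESRP1. They were named by symbol, by a rule that uses no measured value but was written with earlier results of these data known, and 9 of the 10 had a row among the 30735 genes of the deposited tables. TWIST1 had no row and was not analysed here. PANC-1, an established human cell line from a pancreatic ductal carcinoma, was cultured in DMEM with fetal bovine serum. It was transfected by lipofection, without serum, with siRNA against CD73 (3 samples) or with its negative control (3 samples). CD73 is the surface enzyme encoded by NT5E, and RNA-seq was used in the study to look for its downstream targets. All 6 samples thus share the cell line and the transfection procedure, the knockdown is transient and incomplete, and 1 cell line stands for the tumor cells.

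Epithelial cells hold together through E-cadherin junctions, and mesenchymal cells lose these junctions, carry N-cadherin and fill with vimentin filaments. The switch between the states is run by the transcription factors of the SNAI, ZEB and TWIST families, which bind E-box motifs in epithelial promoters and repress them. ZEB1 and ZEB2 in turn are held down by the miR-200 miRNAs in epithelial cells, and pancreatic cancer lines are known to lie at many points between the end states.

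The values are RPKM, reads scaled to gene length and to the library total, so levels can be compared between genes. The library totals behind them were 15009113 to 16836207 reads per sample. NT5E checked the labels, with 13.96, 13.87 and 17.1 RPKM in negative controls 1, 2 and 3 and 3.36, 6.85 and 8.22 RPKM in CD73 siRNA samples 1, 2 and 3. The groups did not overlap and the unadjusted p was below 0.01, with a log2 fold change of -1.23 ± 0.26 (SE; limma, adjusted p = 0.30). GAPDH lay between 529.9 and 591.6 RPKM in all 6 samples. For the ductal origin, KRT8, KRT18, KRT19 and SOX9 were detected in every sample at 3.59 RPKM or more, while KRT7, another duct keratin, stayed at or below 0.107 RPKM. The 4 acinar and islet genes with a row reached at most 0.129 RPKM and the 7 blood and endothelial genes at most 0.0611 RPKM. In bulk RNA a smaller share of cells of one state and less RNA per cell cannot be told apart.

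The miR-200 family and its seed matches in ZEB1 and ZEB2 are shown because these 2 genes lay at very different levels in these cells. Mature miR-200 sequences are from RefSeq (GRCh38.p14), 5′ to 3′, with the seed (bases 2 to 8) in capitals. The first 3 share the seed AAUACUG and the last 2 the seed AACACUG.
hsa-miR-200b-3p: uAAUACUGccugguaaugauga
hsa-miR-200c-3p: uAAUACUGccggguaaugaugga
hsa-miR-429: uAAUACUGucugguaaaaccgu
hsa-miR-200a-3p: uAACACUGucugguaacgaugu
hsa-miR-141-3p: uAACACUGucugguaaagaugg

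Matches to these seeds (CAGTATT for the first seed, CAGTGTT for the other, sense strand of the transcript) were counted in the 3′-UTRs of GENCODE release 29. The 3′-UTR of the principal ZEB1 transcript (1938 bases) held 8 matches, 5 of CAGTATT and 3 of CAGTGTT. That of the principal ZEB2 transcript (5370 bases) held 9, 5 of CAGTATT and 4 of CAGTGTT. Taking the longest 3′-UTR of each gene, a match to either seed was found in 36.3% of 2514 3′-UTRs within 20% of the ZEB1 length and in 72.2% of 1118 within 20% of the ZEB2 length. As many matches as in these transcripts were held by 0 of the 2514 and by 2 of the 1118, ZEB2 itself being 1 of the latter. ZEB1 was not in its own set, since its longest 3′-UTR (2549 bases, 9 matches) lay outside that length range. A match is a string in the transcript and no measurement of repression. The windows of 30 bases below, from GRCh38, show 1 match of each kind per gene, with the match in capitals. Each match shown is followed by an A, while some others, more of them in ZEB1 than in ZEB2, are not.
ZEB1, chr10:31527621-31527650, + strand: gttttatcttatCAGTATTatcactcttat
ZEB1, chr10:31528785-31528814, + strand: gatttgatttaaCAGTGTTatgttaacatt
ZEB2, chr2:144388979-144389008, - strand: actacaatgcatCAGTATTatgattcctct
ZEB2, chr2:144389226-144389255, - strand: aaaaattttgtaCAGTGTTaaggcctaaaa

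Among the 8 miR-200 and miR-205 loci and host genes looked for, 2 had a row. MIR200A was at 0.693 RPKM in negative control 1, the value of 1 read, and at 0 in the other 5 samples. MIR200C was at 0.947 RPKM in negative control 2, again 1 read, and at 0 elsewhere. Reads on these short hairpin genes do not measure the mature miRNAs, whose levels were not analysed here.

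In the negative controls the 9 genes spanned from 240 to 0.0721 RPKM in mean, and their order was VIM, SNAI1, ZEB1, CDH2, EPCAM, CDH1, ESRP1, SNAI2 and ZEB2. Each of the first 4 lay above the next gene with no overlap over the 6 samples, VIM being 16.7-fold above SNAI1, SNAI1 2.22-fold above ZEB1, ZEB1 1.46-fold above CDH2 and CDH2 3.66-fold above EPCAM in control means. EPCAM and CDH1 overlapped, as did CDH1 and ESRP1, and SNAI2 and ZEB2. ESRP1 lay above SNAI2 in all 6 samples. The plot of RPKM by sample shows this order with mesenchymal genes and 1 member each of the SNAI and ZEB families at the top and the epithelial genes at about 1 RPKM or below.

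**Figure D1:**
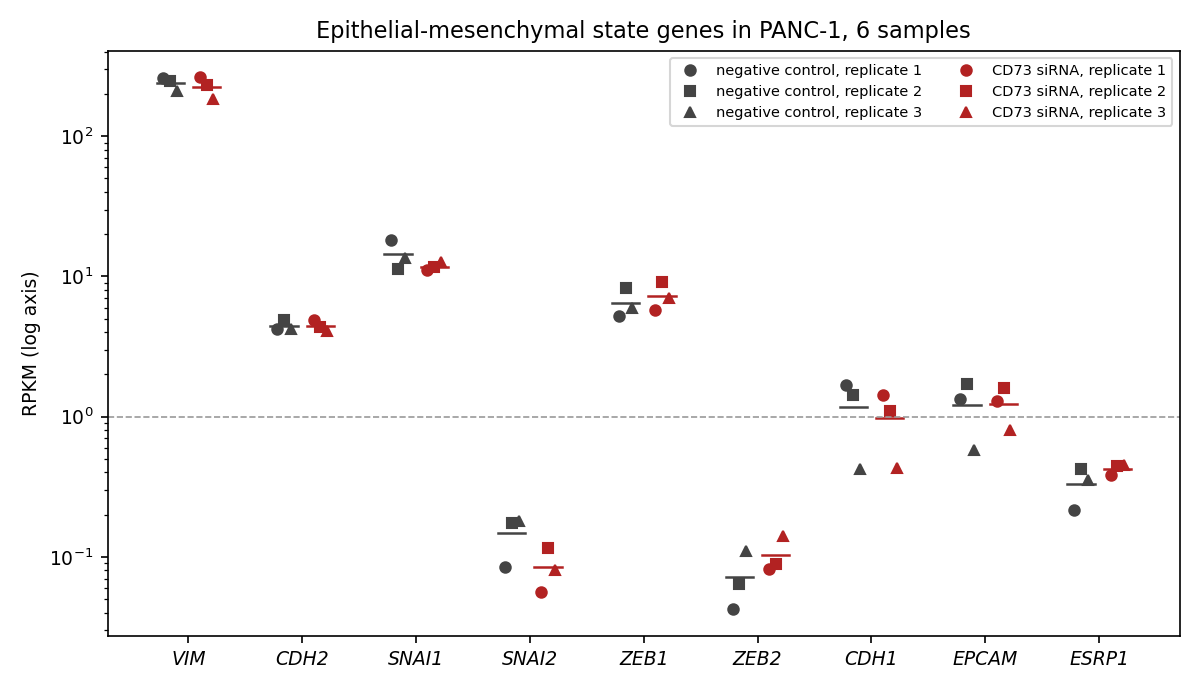
RPKM of the 9 genes in the 6 samples on a log axis, grouped by role, with negative controls in grey, CD73 siRNA samples in red, symbols for replicate numbers and bars at group means (n = 3). VIM lies between 183 and 263 RPKM, ZEB1 stands more than 50-fold above ZEB2 in each sample, and every gene's groups overlap.

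Of the mesenchymal structural genes, VIM (ENSG00000026025, chromosome 10, 17228259 to 17237593, + strand, GRCh38), the vimentin intermediate filament gene, was by far the highest. It measured 262, 248 and 211 RPKM in negative controls 1, 2 and 3 and 263, 231 and 183 RPKM in CD73 siRNA samples 1, 2 and 3. Between 15886 and 21811 reads lay behind each value. In the controls VIM ranked at position 78 from the top, above 99.7% of all genes. The CD73 siRNA mean of 226 ± 40.3 RPKM (SD, n = 3) and the control mean of 240 ± 26.4 RPKM (SD, n = 3) overlapped over most of their range, and sample 3 was the lowest of both groups. The log2 fold change was -0.10 ± 0.15 (SE), with a 95% interval from -0.45 to 0.24 (limma, adjusted p = 0.82). VIM-AS1, which lies antisense to VIM, was at 0.679 to 1.14 RPKM, and whether the counting used strand is not given in the sources used here.

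CDH2 (ENSG00000170558, chromosome 18, 27950966 to 28177446, - strand), which encodes N-cadherin, was detected at a steady moderate level. It measured 4.22, 4.85 and 4.21 RPKM in the controls and 4.93, 4.35 and 4.12 RPKM after CD73 siRNA, on 313 to 392 reads. No sample stood apart, and the means were 4.43 ± 0.367 and 4.46 ± 0.417 RPKM (SD, n = 3 each). The log2 fold change was 0.01 ± 0.11 (SE), with a 95% interval from -0.25 to 0.27 (limma, adjusted p = 0.98). The sign of this difference turned under median-ratio scaling (-0.01), and of the 9 genes CDH2 had the smallest difference on the log2 scale.

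The transcription factors that repress CDH1 divided sharply within each family. SNAI1 (ENSG00000124216, chromosome 20, 49982999 to 49988886, + strand), the zinc finger factor Snail, was at 18.3, 11.4 and 13.5 RPKM in the controls and at 11.1, 11.6 and 12.6 RPKM after CD73 siRNA. Control 1 was the highest sample, and the other 5 lay within 11.1 to 13.5 RPKM. The means were 14.4 ± 3.53 RPKM and 11.8 ± 0.784 RPKM (SD, n = 3 each), on 298 to 494 reads per sample. The log2 fold change was -0.25 ± 0.16 (SE), with a 95% interval from -0.62 to 0.13 (limma, adjusted p = 0.57). Without negative control replicate 1 it was -0.07. Within replicate numbers the differences were -0.67, 0.03 and -0.09 on the log2 scale, so that replicate 1 alone held most of the mean difference.

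SNAI2 (ENSG00000019549, chromosome 8, 48917604 to 48921740, - strand), the related factor Slug, was near the limit of detection. It measured 0.0849, 0.175 and 0.181 RPKM in the controls and 0.0564, 0.115 and 0.0808 RPKM after CD73 siRNA, and SNAI1 was 64.9- to 215-fold higher per kilobase in the same samples. CD73 siRNA was the lower in each of the 3 replicate numbers, but the groups overlapped and each value rests on fewer than 10 reads. The difference of the means was -0.08 on the log2(RPKM + 1) scale, with an exact two-sided permutation p of 0.2, where 0.1 is the smallest that 3 samples against 3 allow. SNAI3, the remaining family member, lay between 0.223 and 0.960 RPKM.

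ZEB1 (ENSG00000148516, chromosome 10, 31318495 to 31529814, + strand), the zinc finger and homeobox repressor of CDH1, was clearly expressed. It measured 5.18, 8.31 and 5.95 RPKM in the controls and 5.75, 9.14 and 7.02 RPKM after CD73 siRNA, on 719 to 1244 reads. Replicate 2 was the highest sample of both groups, and the CD73 siRNA sample lay above its control in each replicate number. The within-number differences were 0.13, 0.12 and 0.21 on the log2 scale, smaller than the distance between replicate numbers, and the groups overlapped. The log2 fold change was 0.15 ± 0.20 (SE), with a 95% interval from -0.30 to 0.60 (limma, adjusted p = 0.78). A fit that blocked on the replicate number narrowed the interval to -0.04 to 0.35, which still held 0 (adjusted p = 0.30).

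ZEB2 (ENSG00000169554, chromosome 2, 144364364 to 144524583, - strand), the close relative of ZEB1, was the lowest of the 9 genes in control mean. It measured 0.0424, 0.0645 and 0.109 RPKM in the controls and 0.0822, 0.0891 and 0.140 RPKM after CD73 siRNA, on 17 to 59 reads. The CD73 siRNA sample was the higher in each of the 3 replicate numbers, by 0.04 in the mean on the log2(RPKM + 1) scale, and the groups overlapped (exact two-sided permutation p = 0.4). ZEB1 exceeded ZEB2 by 50.1- to 129-fold. Part of this ratio lies in the length each read number is divided by, since the merged exons span 25058 bases for ZEB2 and 8650 for ZEB1 in GENCODE release 29. Even in reads, with no length correction, ZEB1 lay far above ZEB2 in every sample. Of the pair whose seed matches are shown above, ZEB1 was thus the expressed gene and ZEB2 was close to absent.

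The promoter windows of RefSeq (250 bases before to 50 after a start, GRCh38.p14) were searched for the E-box bound by SNAI and ZEB factors, CAGGTG on either strand (CACCTG on the other). Of the 10 genes, 4 had an entry. The single VIM and ZEB2 windows and both CDH2 windows held 0 E-boxes, and 2 of the 7 ZEB1 windows held 1 and 3. Among all 35116 promoter windows 20.6% held at least 1 and 3.49% held 2 or more. These shares are per window, and ZEB1, with 7 windows, had more chances to hold an E-box than the other genes. The ZEB1 window with 3 is shown with its E-boxes in capitals because ZEB1 itself was the expressed ZEB gene. The motif is a string match and no binding measurement.
ZEB1, chr10:31318966-31319265, + strand: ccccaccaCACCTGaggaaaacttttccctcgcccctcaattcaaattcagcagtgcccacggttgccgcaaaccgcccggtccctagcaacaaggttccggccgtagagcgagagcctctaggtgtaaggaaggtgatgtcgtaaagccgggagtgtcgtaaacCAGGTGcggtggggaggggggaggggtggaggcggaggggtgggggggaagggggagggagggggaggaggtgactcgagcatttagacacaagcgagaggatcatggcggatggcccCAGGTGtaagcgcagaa

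Of the epithelial genes, CDH1 (ENSG00000039068, chromosome 16, 68737225 to 68835548, + strand), the E-cadherin gene, was low but present. It measured 1.69, 1.43 and 0.421 RPKM in the controls and 1.43, 1.09 and 0.433 RPKM after CD73 siRNA, on 39 to 167 reads. Replicate 3 was the lowest of both groups, by more than 2-fold. The means were 1.18 ± 0.669 and 0.984 ± 0.507 RPKM (SD, n = 3 each). The log2 fold change was -0.12 ± 0.29 (SE), and its 95% interval from -0.78 to 0.55 was the widest of the 6 genes tested (limma, adjusted p = 0.90). Without CD73 siRNA replicate 3 the difference turned to 0.10, and without negative control replicate 1 to 0.06.

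EPCAM (ENSG00000119888, chromosome 2, 47345158 to 47387601, + strand), an epithelial adhesion molecule, measured 1.34, 1.71 and 0.582 RPKM in the controls and 1.28, 1.61 and 0.802 RPKM after CD73 siRNA, on 22 to 67 reads. Here too replicate 3 was the lowest of both groups. The means were 1.21 ± 0.576 and 1.23 ± 0.409 RPKM (SD, n = 3 each). Their log2 fold change was 0.03 ± 0.23 (SE), with a 95% interval from -0.50 to 0.57 (limma, adjusted p = 0.97). EPCAM-DT, the divergent transcript beside it, did not exceed 0.233 RPKM.

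ESRP1 (ENSG00000104413, chromosome 8, 94641074 to 94707466, + strand), an epithelial splicing regulator, was lower still. It measured 0.217, 0.423 and 0.355 RPKM in the controls and 0.383, 0.443 and 0.451 RPKM after CD73 siRNA, on 17 to 37 reads. CD73 siRNA samples were the higher in each replicate number, the groups overlapped, and the difference of 0.10 on the log2(RPKM + 1) scale had an exact two-sided permutation p of 0.2. Its paralog ESRP2 was 19.9- to 33.5-fold higher, at 7.28 to 9.01 RPKM, so the expressed member of the ESRP pair was ESRP2. These pairs therefore each had 1 high and 1 low gene, SNAI1 over SNAI2, ZEB1 over ZEB2 and ESRP2 over ESRP1. SNAI3 was low as well, and ESRP2 was not among the genes named by the rule.

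The cadherin balance lay on the N-cadherin side in every sample. CDH2 exceeded CDH1 by 2.50-, 3.40- and 10.0-fold in negative controls 1, 2 and 3 and by 3.44-, 3.99- and 9.51-fold in CD73 siRNA samples 1, 2 and 3. The ratio was highest in replicate 3 of both groups, where CDH1 was low and CDH2 was not. VIM exceeded CDH1 by 156- to 502-fold, again with both replicate 3 samples highest.

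None of the members tested by limma passed the test of CD73 siRNA against negative control. Of the 9 with a row, 6 passed the filter of 1 RPKM in at least 3 samples, and 0 of these 6 had an unadjusted limma p below 0.01, the limit used in the study. Nor had any an unadjusted p below 0.05. The 3 below the filter had the permutation test, whose smallest p of 0.1 cannot reach these limits whatever the change. Among all 12527 genes tested 3.13% were below 0.01, with 1.82% higher and 1.31% lower after CD73 siRNA, and 0.00798% (1 gene) had an adjusted p below 0.05. In the fit blocked on replicate number 0 of the 6 were below 0.01, against 7.57% of all genes. With only 6 members tested, 0 is near either share. The blocked 95% intervals ran from -0.27 to 0.06 for VIM, -0.42 to 0.19 for CDH1 and -0.23 to 0.24 for CDH2. They ran from -0.59 to 0.10 for SNAI1 and from -0.27 to 0.34 for EPCAM, and each held 0. On the log2(RPKM + 1) scale the 95% intervals without the block reached 0.78 at most, for CDH1, and 0.27 for CDH2. Changes within them were not detectable here. This scale understates changes of low genes. At a control mean of 1.18 RPKM, the CDH1 limit stands for a larger fold change than its value reads. The limits of CDH1 and CDH2 therefore cannot be compared as fold changes.

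The groups overlapped for all 9 genes, among them the 6 tested, and 18.4% of all genes tested had groups that did not. With only 6 members tested, having none is near that share. Of the 6 tested, only ZEB1 differed in the same direction in all 3 replicate numbers, against 51.4% of all genes. Of the 3 below the filter, ZEB2 and ESRP1 were higher and SNAI2 was lower after CD73 siRNA in all 3 numbers, at levels where few reads decide the value. The plot of differences sets these values beside the knockdown of NT5E.

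**Figure D2:**
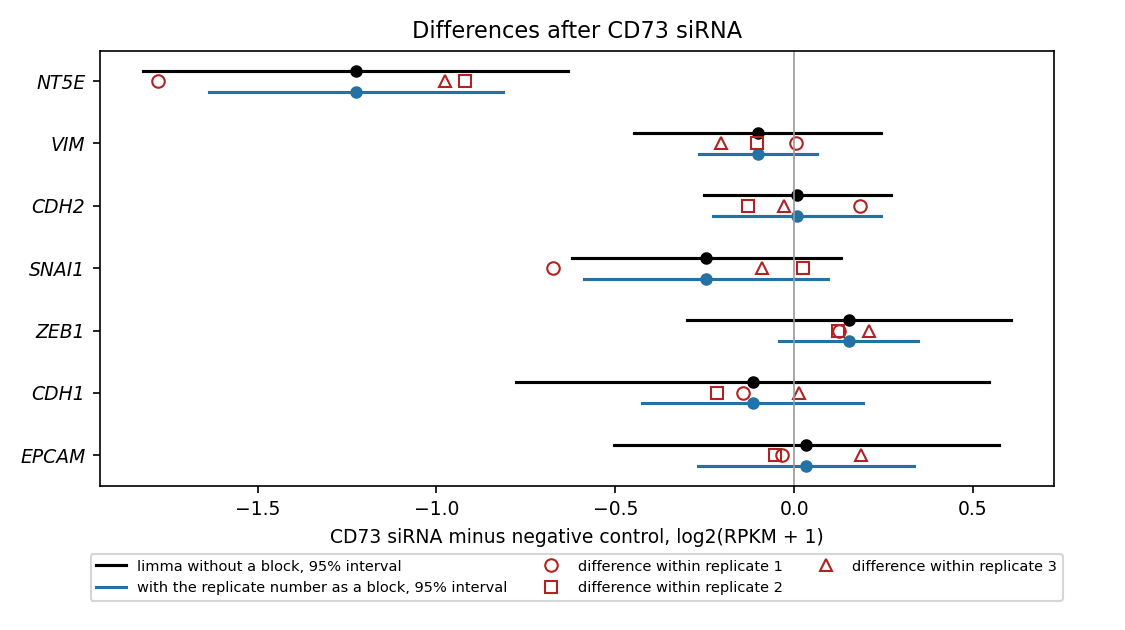
Difference between CD73 siRNA and negative control on the log2(RPKM + 1) scale for NT5E and the 6 genes tested, as limma estimate with 95% interval without a block (black) and blocked on the replicate number (blue), and as the difference within each replicate number (open red symbols). The NT5E intervals lie wholly below 0, and those of the 6 genes include 0.

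Several members lay further apart between replicate numbers than between conditions. Here the span of 3 numbered-pair means is set against the difference of 2 group means. These measures are unlike, and the span can be the larger without any replicate effect. In a limma F-test of the replicate number, chosen after the values were seen, ZEB1, CDH1 and VIM had an unadjusted p below 0.01. These are 3 of the 6 tested, beside 9.27% of all genes. Over all genes ZEB1 had adjusted p = 0.065, CDH1 adjusted p = 0.074, VIM adjusted p = 0.088 and EPCAM adjusted p = 0.11, and 0 of the 6 were below 0.05, which 1.82% of all genes were. The means of the numbered pairs spanned 0.84 for CDH1, 0.66 for EPCAM, 0.59 for ZEB1 and 0.42 for VIM on the log2 scale. VIM and CDH1, genes of opposite states, were both lowest in replicate 3 of both groups, while ZEB1 was highest in replicate 2 of both. What the replicate number stands for (day, passage or library batch) is not given in the labels.

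**Figure D3:**
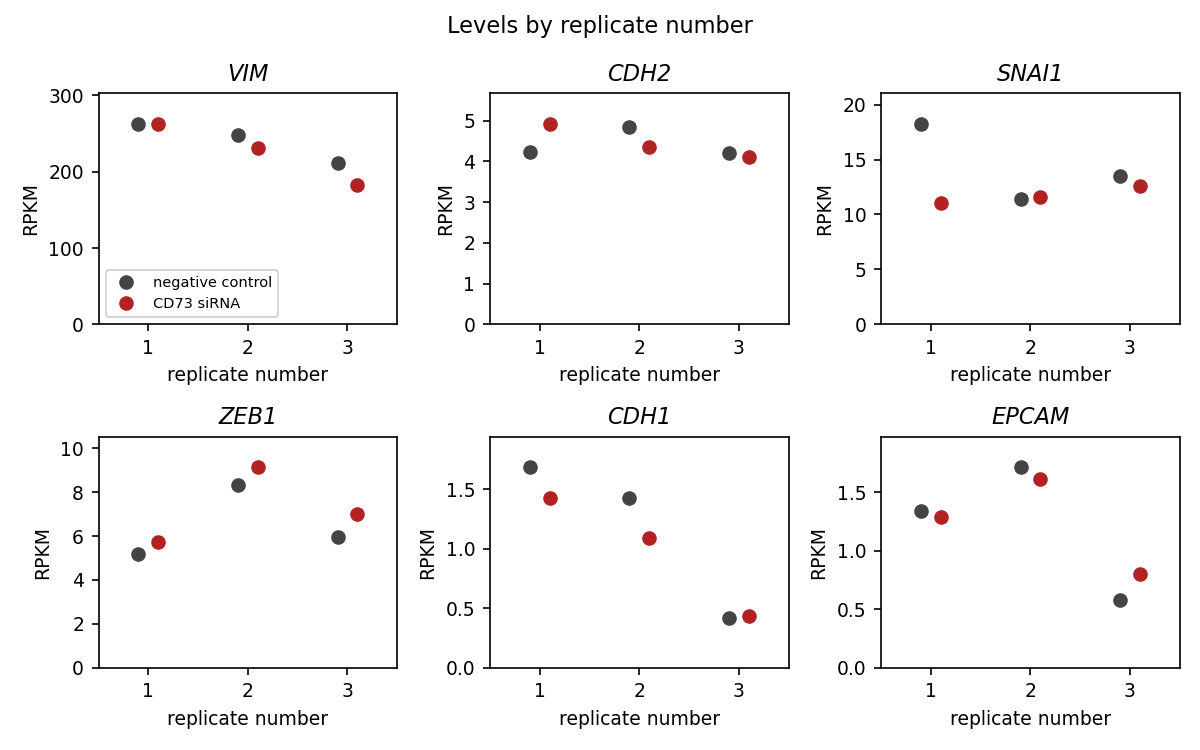
RPKM by replicate number for the 6 genes tested, in negative controls (grey) and CD73 siRNA samples (red), with each axis starting at 0. CDH1 and EPCAM are lowest in replicate 3 of both groups, ZEB1 is highest in replicate 2 of both, and the high SNAI1 value of 18.3 RPKM is in negative control 1.

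The 3 genes most like CDH1 over the 6 samples, by Pearson's r of log2(RPKM + 1) among the genes tested, were ENSG00000283041 (r = 0.992), which has no symbol in the name table, PFDN5 (r = 0.992), a prefoldin chaperone subunit, and PPME1 (r = 0.989), a protein phosphatase methylesterase. Most like VIM were NDUFB4 (r = 0.991), a subunit of respiratory complex I, ENSG00000223374 (r = 0.989) and the uroplakin gene UPK1A (r = 0.989). Most like ZEB1 were FOSB (r = 0.997), an immediate early factor of the AP-1 family, DCLRE1B (r = 0.994) and ERCC4 (r = 0.987), both of DNA repair. FOSB was at 3.31 and 3.67 RPKM in the replicate 2 samples and at 0.618 to 1.95 RPKM in the other 4. These are the highest values out of 12527 genes over only 6 samples, which share the replicate pattern above, and they are given as a description.

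The wider set of 132 companion genes was taken from lists written by hand, and 80 of them passed the filter. Of these 6 had an unadjusted limma p below 0.01, namely KRT8, KRT18, LOXL2, TCF3, HDAC1 and NT5E itself, beside 3.13% of all genes. Blocking on the replicate number gave 18, beside 7.57% of all genes. Adjusted p-values over all genes were 0.30 to 0.31 for these 6, so none passed 0.05. The plot of companion lists shows the fold changes of each list.

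**Figure D4:**
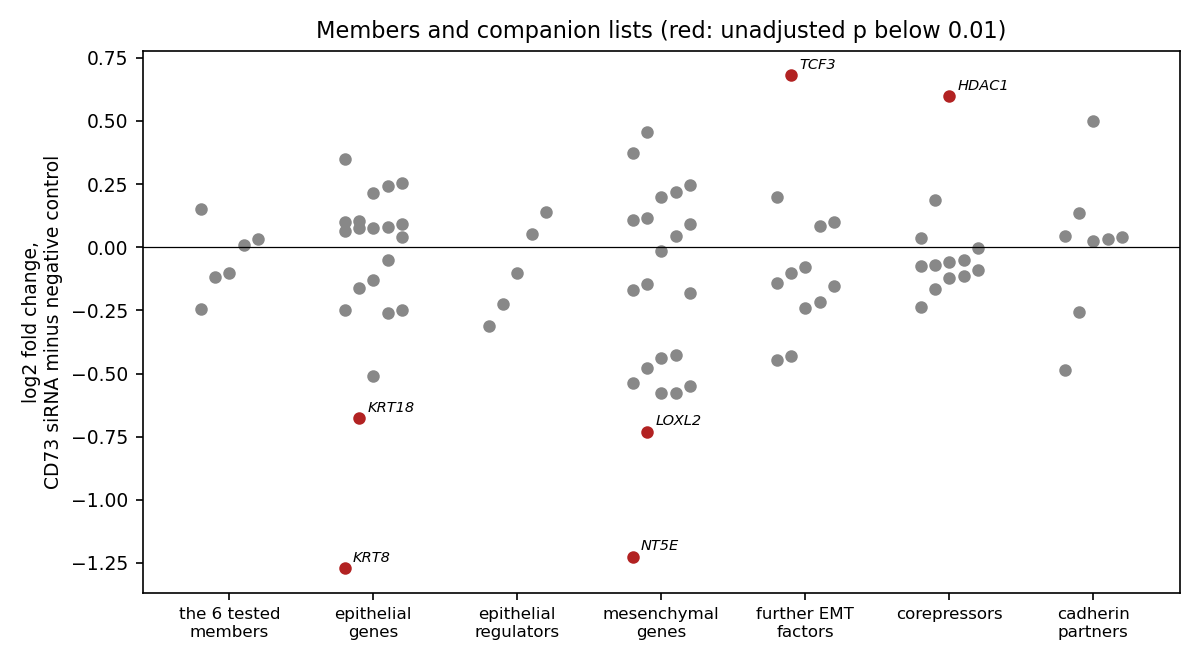
Log2 fold change (CD73 siRNA minus negative control, log2(RPKM + 1) scale, limma) of each tested gene by list, with red for an unadjusted p below 0.01. The 6 members lie between -0.25 and 0.15, and the red genes are KRT8, KRT18, LOXL2 and NT5E below 0 and TCF3 and HDAC1 above it.

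Of 38 epithelial genes (junction proteins, keratins and surface antigens), 37 had a row and 21 were tested. At an unadjusted p below 0.01 (limma), 0 were higher and 2 lower after CD73 siRNA, beside 1.82% and 1.31% of all genes. The other 19 did not pass the test, and the median log2 fold change was 0.06 beside 0.01 over all genes. KRT8, the keratin of simple epithelia, was at 158, 72.0 and 83.6 RPKM in the controls and at 45.4, 47.5 and 30.01 RPKM after CD73 siRNA, a log2 fold change of -1.27 ± 0.30 (SE; limma, adjusted p = 0.30). The groups did not overlap and control 1 was highest. Its filament partner KRT18 was at 87.0, 56.8 and 67.4 RPKM and then at 45.7, 48.1 and 36.3 RPKM, a log2 fold change of -0.68 ± 0.17 (SE; limma, adjusted p = 0.30). KRT8 stayed below an unadjusted p of 0.01 with any 1 sample left out (-1.49 to -0.93). KRT18 did not when CD73 siRNA 1 (-0.72), CD73 siRNA 3 (-0.56), control 1 (-0.51) or control 3 (-0.70) was left out. Both keratin genes have near-identical pseudogenes that can take a share of the reads, and this was not tested. The junction plakoglobin gene JUP, second in control mean between KRT8 and KRT18, had a log2 fold change of 0.04 (limma, adjusted p = 0.95).

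Of the 37 epithelial genes with a row, 19 had a control mean above that of CDH1, and these lay above it in all 6 samples, while 18 had a lower control mean. The tight junction genes OCLN (11.6 to 14.6 RPKM) and CLDN1 (4.65 to 14.8 RPKM), and the desmosomal gene DSP (9.80 to 14.3 RPKM) were among the higher, and CLDN7 lay at 3.18 to 4.15 RPKM. These 4 genes were chosen after their values were seen. Under the block CD24 and LSR also had an unadjusted p below 0.01, CD24 being higher (log2 fold change 0.35) and LSR lower (-0.51), each with adjusted p = 0.12, for 1 higher and 3 lower in all.

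Of 15 epithelial regulators, 14 had a row and 5 were tested, and 0 passed the test with or without the block. The highest were FOXA2, a foregut pioneer factor (mean 15.4 ± 4.21 RPKM in the controls and 15.8 ± 3.03 RPKM after CD73 siRNA, SD, n = 3 each), GRHL3, a grainyhead factor (8.12 ± 1.61 and 7.60 ± 2.09 RPKM), and ESRP2 (7.72 ± 0.730 and 8.60 ± 0.544 RPKM). GRHL2, the grainyhead factor known to hold ZEB1 down, was at 0 in all 3 controls and rested on 3, 1 and 1 reads in the CD73 siRNA samples. ELF3 and OVOL1 stayed at or below 0.139 and 0.0495 RPKM, both below the filter. ELF3 rested on 16, 7 and 14 reads in the controls and on 3, 0 and 3 after CD73 siRNA. OVOL1 rested on 0, 1 and 1 reads in the controls and on 2, 3 and 3 after CD73 siRNA. The median log2 fold change was -0.10.

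Of 40 mesenchymal genes, 39 had a row and 22 were tested. At an unadjusted p below 0.01 (limma), 0 were higher and 2 lower after CD73 siRNA, beside 1.82% and 1.31% of all genes. The other 20 did not pass the test, and the median was -0.16. Besides NT5E, which is on this list as a mesenchymal surface marker and was the target of the siRNA, LOXL2 was lower. LOXL2, a lysyl oxidase that crosslinks collagen, was at 26.1, 20.9 and 15.9 RPKM in the controls and at 10.5, 14.9 and 11.02 RPKM after CD73 siRNA (log2 fold change -0.73 ± 0.19, SE; limma, adjusted p = 0.30). This call was lost when CD73 siRNA 1 (-0.64), CD73 siRNA 3 (-0.67), control 1 (-0.57) or control 2 (-0.72) was left out. High in the list were the galectin LGALS1 (276 ± 6.63 and 284 ± 4.45 RPKM, control and CD73 siRNA) and the caveolin CAV1 (189 ± 40.7 and 170 ± 28.8 RPKM, SD, n = 3 each).

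Under the block 7 mesenchymal genes were below an unadjusted p of 0.01 with a lower mean and 1 with a higher mean, where 7.57% of all genes were below it in either direction. None passed adjustment, which 0 of 12527 genes did under the block. Among those with a lower mean were CCN2, AXL, PLAUR and ENG with LOXL2 and NT5E (adjusted p-values with the block 0.11 to 0.13), and the tropomyosin gene TPM2 had the higher mean (adjusted p = 0.13). Of the 39 genes with a row, 22 had a group mean of at least 1 RPKM. Among these were COL1A1 (8.97 to 19.1 RPKM), MMP14 (14.7 to 21.3 RPKM) and CD44 (79.0 to 122 RPKM). Some other classical markers were low throughout, with FN1 at 0.320 to 0.731 RPKM, SPARC at 0.0395 to 0.207 RPKM and ACTA2 at 0.0419 to 0.272 RPKM. The highest mesenchymal genes were thus LGALS1, VIM and CAV1, while the fibronectin gene FN1 stayed below 1 RPKM.

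Of the 9 fibroblast genes, 7 had a row and COL1A1, COL3A1 and THY1 were above 1 RPKM, while COL1A2, LUM and PDGFRA stayed below 0.05 RPKM. Their sum lay between 24.2 and 42.4 RPKM in the controls and between 22.8 and 41.0 RPKM after CD73 siRNA. None of the 3 tested passed the test.

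Of 18 further EMT transcription factors, all had a row and 12 were tested. After CD73 siRNA 1 was higher at an unadjusted p below 0.01 (limma), beside 1.82% of all genes. TCF3, the E2A factor that binds E-boxes, was at 14.8, 26.0 and 19.2 RPKM in the controls and at 31.0, 33.0 and 31.6 RPKM after CD73 siRNA (log2 fold change 0.68 ± 0.18, SE; limma, adjusted p = 0.30). The groups did not overlap, but the call held only when control 2 was left out (0.88) and was lost when any other sample was (0.49 to 0.70). The highest of the list were YBX1 (406 ± 23.1 and 437 ± 56.3 RPKM), FOSL1 (84.8 ± 35.2 and 72.9 ± 30.3 RPKM) and SOX9 (47.7 ± 3.55 and 54.9 ± 1.05 RPKM, SD, n = 3 each). With the block SOX4 and ETS1 had a lower mean at an unadjusted p below 0.01, each with adjusted p = 0.11. TWIST2, the paralog of TWIST1, was at 3.51 to 4.35 RPKM. The median of the list was -0.12.

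Of the 13 corepressors and partners through which SNAI and ZEB factors silence genes, all were tested. After CD73 siRNA 1 was higher at an unadjusted p below 0.01 (limma), beside 1.82% of all genes. HDAC1, a histone deacetylase, was at 35.7, 53.5 and 56.9 RPKM in the controls and at 73.7, 66.9 and 78.2 RPKM after CD73 siRNA (log2 fold change 0.60 ± 0.17, SE; limma, adjusted p = 0.31). Control 1 was the lowest sample, and the call was lost when CD73 siRNA 1 (0.59), 2 (0.66) or 3 (0.55) was left out, and under either other scaling. KDM1A (40.7 ± 4.58 and 38.7 ± 4.65 RPKM) and SUZ12 (32.5 ± 1.97 and 31.3 ± 0.440 RPKM) followed in level, and the median was -0.07.

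Of the 9 cadherin partners, 8 were tested and 0 passed without the block. The highest were vinculin VCL (91.3 ± 17.2 and 64.4 ± 7.17 RPKM), JUP (84.6 ± 17.8 and 86.4 ± 12.8 RPKM) and beta-catenin CTNNB1 (54.8 ± 4.04 and 56.0 ± 3.23 RPKM, SD, n = 3 each). With the block VCL with a lower mean (adjusted p = 0.12) and AFDN, the afadin gene, with a higher mean (adjusted p = 0.13) were past the unadjusted limit only. The catenins that passed the filter stood well above CDH1 and CDH2 in RPKM. ZEB1-AS1, which starts beside ZEB1 on the other strand, was at 0.439 to 1.13 RPKM in the controls and 0.884 to 1.87 RPKM after CD73 siRNA (log2 fold change 0.43, limma, adjusted p = 0.46).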

How the data were processed

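The authors deposited normalized values of 30735 Ensembl genes, 1 table for each of the 6 samples, read here as RPKM (reads scaled to exon length and library total). The submitters' processing notes name bcl2fastq, Bowtie2 2.2.3, HTSeq 0.6.0 and hg38, and the annotation and use of strand are not given in the sources used here. The unit was inferred. After multiplication by merged exon lengths from GENCODE release 29, 95.1% to 95.2% of values below 1000 reads were whole multiples (tolerance 0.02) of 1 step per sample, which gave library totals and reads per gene, used for description only. Reads behind SNAI2 and ZEB2 were not exactly whole and are approximate. Of the identifiers, 30384 matched a symbol and 351 did not.

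Groups and replicate numbers came from the sample titles. Values were compared as log2(RPKM + 1), which understates changes of low genes, keeping the 12527 genes that reached 1 RPKM in 3 or more of the 6 samples, with limma 3.58.1 (lmFit, eBayes with trend) run in R 4.3.3, and p-values were adjusted by Benjamini-Hochberg. Intervals are 95%. Genes below the filter had an exact permutation test. The study describes separate knockdown experiments, and the p-values measure the spread between these samples. Deviations from the group means correlated within each number (r = 0.20, 0.48 and 0.55), only weakly for replicate 1. A fit that treats the numbers as pairs, with the replicate number as a block, was therefore run beside the main one. Alternatives were another pseudocount (0.1), other filters, TPM and median-ratio scaling, no moderation, the block and leaving out each sample. In a simulation of this comparison over 12527 genes, limma recovered 93.5% of 200 genes shifted by 1.5 (log2) at an adjusted p below 0.05. The shifted genes were drawn from the more highly expressed ones, and the samples were simulated without a shared replicate effect. This share therefore does not measure the power for low genes such as CDH1 and EPCAM, or for smaller shifts.

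The genes and companion lists were chosen with earlier results of these data known. Named were all 10 genes, NT5E, GAPDH, each companion gene with an unadjusted p below 0.01, the 3 highest of each list by control mean, and the 3 genes most correlated with CDH1, VIM and ZEB1. A gene that this rule names is not reported here. Others named were chosen after their values were seen. Analyses were scripted in Python 3.11.15.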

Additional observations from a re-analysis of the deposited data

How the results depend on the processing

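The count of member genes below an unadjusted p of 0.01 was 0 in all 13 alternatives. With so few members, and 116 to 948 of all genes below it, a count of 0 says little about stability. SNAI1 kept its direction in all 13 (-0.39 to -0.07 on the log2 scale), as ZEB2, SNAI2 and ESRP1 did in all 11 that gave a value. The other filters, no moderation and the replicate block leave the difference itself unchanged, so these alternatives could not turn a sign. Some differences near 0 changed sign, and the cause was not tested beyond the sample left out. Without CD73 siRNA replicate 3, VIM was 0.041 and CDH1 0.10. CDH1 was 0.061 with negative control replicate 1 left out. CDH2 was -0.012 under median-ratio scaling, -0.051 when CD73 siRNA replicate 1 was left out, and -0.02 when negative control replicate 1 or 3 was. ZEB1 was -0.0018 without CD73 siRNA replicate 2. EPCAM turned to -0.088 when CD73 siRNA replicate 2 was left out and to -0.19 when negative control replicate 3 was.

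Leaving out 1 sample gave ranges of -0.22 to 0.041 for VIM, -0.40 to 0.10 for CDH1, -0.051 to 0.064 for CDH2, -0.0018 to 0.32 for ZEB1, -0.19 to 0.20 for EPCAM and -1.44 to -0.90 for NT5E. NT5E stayed at -1.23 without moderation across genes but no longer had an unadjusted p below 0.01. The number of genes below 0.01 was 216 without moderation, 948 with the replicate block and 116 to 792 with 1 sample left out, against 392. The companion genes numbered 0 without moderation, 18 with the replicate block, 5 without NT5E and 2 to 11 with 1 sample left out, against 6. Among the fits with 1 sample left out, both counts were lowest when CD73 siRNA replicate 1 was left out and highest when negative control replicate 2 was. KRT8 and NT5E passed in 12 of 13 alternatives, KRT18 in 8, LOXL2 in 7, and TCF3 and HDAC1 in 6 each. No moderation ended all 6 of these calls, no filter on low values ended those of LOXL2, TCF3 and HDAC1, and TPM and median-ratio scaling that of HDAC1. The replicate block changed no call of a member. Few reads lay behind ESRP1, SNAI2 and ZEB2. With 3 samples a group, their permutation p could not fall below 0.1, so that test could call no change of any size.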
